A study of Sus scrofa with 14 samples.

Results

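The SLAMF7 and CSF1 cells of sow milk were the cells that carried RNA of at least 2 of 5 surface and cytokine genes, SLAMF7, P2RY14, CSF1, PDCD1LG2 and ICAM1, and no RNA of 6 genes that mark other milk cells. The excluding genes were IFIT1 (induced by interferon), MMP8 (a collagenase of neutrophil granules), CLDN4 and EPCAM (epithelial junction and adhesion proteins), CD3D (T cell receptor complex) and GPNMB (a glycoprotein of lipid-loaded macrophages). Milk cells were kept if they had 300 or more detected genes and no more than 25% of UMIs from 13 mitochondrial genes. Of the 32085 kept cells, 4578 (14.3%) met this rule, 1607 of 17571 cells at L0 and 2971 of 14514 cells at L20. A unique molecular identifier (UMI) stands for an RNA molecule captured from a cell. Because the members were picked by their own counts, every value of a rule gene and every difference between the members and other milk cells is a description and carries no test.

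The libraries were made from milk of multiparous sows of Sus scrofa without a genetic change or drug treatment, and the milk was colostrum at day 0 of lactation (L0) or mature milk at day 20 (L20). There was 1 milk library per stage, so the stage and the library cannot be told apart and no p-value is given for milk. Single-nucleus libraries of mammary gland tissue, 2 sows at each of late gestation (G90), L0, L20 and days 2 and 7 of natural involution (PI2 and PI7), were used only to ask whether nuclei of the gland met the same rule. The title of the L0 milk library carries the letter that marks G90 in the gland libraries, and its source name and time label, which both give L0, were followed.

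SLAMF7 is a self-binding receptor of the SLAM family found on natural killer cells, plasma cells and activated myeloid cells. CSF1 is the growth factor that keeps macrophages alive, ICAM1 is the adhesion ligand of leukocyte integrins, PDCD1LG2 (PD-L2) is an inhibitory ligand of the T cell receptor PD-1, and P2RY14 is a receptor for UDP-sugars that drives the migration of neutrophils. Several of these genes are textbook targets of NF-kappa-B, the factor that is freed when bacterial products or cytokines reach a myeloid cell and that induces cytokines, chemokines, survival genes and its own inhibitors. Milk carries living leukocytes, above all neutrophils and macrophages, next to shed epithelial cells.

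In the RefSeq annotation of Sscrofa11.1, CSF1 (ENSSSCG00000037449) lies on chr4:110178466-110198232 on the minus strand, ICAM1 (ENSSSCG00000013655) on chr2:69097136-69107722 on the plus strand, PDCD1LG2 (ENSSSCG00000032561) on chr1:216564428-216600333 on the minus strand and P2RY14 (ENSSSCG00000011712) on chr13:91396006-91453761 on the minus strand. SLAMF7 is listed as ENSSSCG00000006378 in the count files. A window of 300 bases from 250 before to 50 after the gene start was searched on both strands for the kappa-B motif of 10 bases, which is named here without its letters because it allows alternatives at several positions. The windows of CSF1, ICAM1, IL23A and NFKB2 are shown because these are genes of the rule, a cytokine with a large difference and a subunit gene of NF-kappa-B itself, and each holds the motif. Each is given 5′ to 3′ on the strand of its gene, with the bases of a kappa-B match in capitals. The window of CSF1 is chr4:110198183-110198482 on the minus strand, that of ICAM1 is chr2:69096886-69097185, that of IL23A is chr5:21732166-21732465 and that of NFKB2 is chr14:113406162-113406461, the last 3 on the plus strand.
CSF1: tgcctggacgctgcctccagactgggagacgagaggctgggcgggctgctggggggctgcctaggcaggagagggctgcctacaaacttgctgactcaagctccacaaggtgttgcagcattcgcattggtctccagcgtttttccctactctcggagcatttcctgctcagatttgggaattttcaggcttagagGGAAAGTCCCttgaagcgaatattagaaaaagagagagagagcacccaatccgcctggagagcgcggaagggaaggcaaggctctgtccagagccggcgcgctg
ICAM1: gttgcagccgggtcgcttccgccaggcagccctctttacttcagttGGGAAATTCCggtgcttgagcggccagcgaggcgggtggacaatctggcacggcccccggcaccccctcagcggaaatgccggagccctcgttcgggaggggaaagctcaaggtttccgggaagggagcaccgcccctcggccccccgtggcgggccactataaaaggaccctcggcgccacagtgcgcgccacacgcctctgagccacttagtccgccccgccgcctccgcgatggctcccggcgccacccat
IL23A: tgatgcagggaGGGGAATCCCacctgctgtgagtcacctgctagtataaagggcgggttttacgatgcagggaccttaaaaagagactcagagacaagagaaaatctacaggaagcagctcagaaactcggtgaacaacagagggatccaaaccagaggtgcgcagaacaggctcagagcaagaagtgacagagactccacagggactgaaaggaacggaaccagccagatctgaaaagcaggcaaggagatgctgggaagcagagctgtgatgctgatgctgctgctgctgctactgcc
NFKB2: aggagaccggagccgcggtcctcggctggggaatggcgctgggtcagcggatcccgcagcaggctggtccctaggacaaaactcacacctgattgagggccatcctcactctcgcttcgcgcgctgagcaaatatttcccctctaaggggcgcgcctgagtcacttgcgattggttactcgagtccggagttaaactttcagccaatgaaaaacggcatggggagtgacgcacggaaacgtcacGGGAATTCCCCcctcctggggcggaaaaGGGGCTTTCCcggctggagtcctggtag
The match starts 54 bases before the start of CSF1 (GGAAAGTCCC), 204 before that of ICAM1 (GGGAAATTCC) and 239 before that of IL23A (GGGGAATCCC). NFKB2 holds overlapping matches that begin 6 and 5 bases before its start and another that begins at base 22 after it. The windows of P2RY14 and PDCD1LG2 hold no match, and no window was available for SLAMF7. Many genes with high folds also lack a match in their window. Among them are IDO1, IL1A, FAS, EDN1, NOD2, BATF3, PLEK, ZC3H12C, DUSP16, GADD45B, HSP70.2, CCL3L1 and CCL4. The windows of TNFAIP3, NFKBIA, CXCL10, ACOD1 and PHEX hold a match. Of 19531 windows, 7.03% hold a kappa-B match, against 10.7% (52) of the 486 windows of genes that were at least 2-fold higher in the members than in other cells in both libraries. Of the 8192 windows of genes compared, 6.81% hold one. Other promoter motifs were also more frequent in the 486 windows than in those of genes compared. These were AP-1 (6.17 against 4.71%), ISRE (3.91 against 2.93%), GAS (7.00 against 6.62%) and the TATA box (7.00 against 4.74%). The heat shock element was not (0 against 0.391%). A match is a run of letters and not a measured binding site.

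The members made up 9.15% of kept cells at L0 (exact Clopper-Pearson 95% interval 8.72 to 9.58) and 20.5% at L20 (19.8 to 21.1), a ratio of 2.24 (2.11 to 2.38). The size of this ratio depended on the rule, with 6.20 at 3 or more markers, 5.04 without CSF1, 3.8 without SLAMF7 and 1.60 at 1 or more markers, and L20 was the higher in each. These intervals, like all intervals given for milk, cover counting error only. Total UMIs were 84971814 in 22257 deposited barcodes at L0 and 46923887 in 18733 at L20, and the libraries shared 284 barcodes, of which 1 belonged to members of both. A typical member held 1188 UMIs and 392 genes at L0 and 1349 UMIs and 406 genes at L20 (medians), against 1351 UMIs and 501.5 genes, and 1261 UMIs and 454 genes, in the other kept cells. The median share of mitochondrial UMIs in members was 1.19% and 0.965%. With every cell thinned to 1000 UMIs, leaving out 4567 and 3866 shallower cells, 7.07% of cells at L0 and 19.1% at L20 met the rule, a ratio of 2.70, where 8.65% and 22.6% of the same cells had met it before thinning. The share of members varied with depth, lowest in the deepest cells at L0 and in the shallowest at L20. They made up 10.4, 11.3, 10.1 and 4.76% of the cells in 4 equal classes of rising UMIs per cell at L0, and 14.4, 22.3, 26.8 and 18.4% at L20.

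The genes that brought cells into the group differed between the libraries. At L0, 82.7% of members carried exactly 2 markers and 53.9% carried SLAMF7 and CSF1 and no other marker. At L20, 52.1% carried 2, 28.3% carried 3, 14.5% carried 4 and 5.05% carried all 5. SLAMF7 was found in 84.9% of members at L0 and 94.1% at L20, CSF1 in 82.5 and 62.2%, ICAM1 in 36.8 and 61.1%, PDCD1LG2 in 11.8 and 38.5%, and P2RY14 in 2.92 and 16.6%. The summed level, in UMIs per 1000000 (CPM), of SLAMF7 was 2703 in members at L0 and 7871 at L20, that of ICAM1 was 561 and 1066, that of PDCD1LG2 was 131 and 517, and that of P2RY14 was 30.9 and 194. CSF1 went the other way, from 1965 to 1349 CPM. The members at L20 thus carried more of 4 markers and less CSF1 than those at L0, in values that chose the cells. The rise of these 4 markers was not particular to the members. In other kept cells SLAMF7 went from 230 CPM at L0 to 1262 CPM at L20, and ICAM1 from 28.5 to 127 CPM. PDCD1LG2 went from 11.8 to 56.1 CPM there and P2RY14 from 4.49 to 25.2 CPM. CSF1 rose in the other kept cells, from 124 to 188 CPM.

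Cells on both sides of the edge of the rule were read for their depth. The 1329 members at L0 and 1547 at L20 with exactly 2 markers had median depths of 1168 and 1311 UMIs. Just outside lay 2977 and 3087 cells with exactly 1 marker and no excluding gene, at 1112 and 1097 UMIs, and 477 and 686 cells with at least 2 markers and a single UMI of an excluding gene, at 1341 and 1504.5 UMIs. Without the excluding genes, 3387 (19.3%) and 5224 (36.0%) cells would have been members, and IFIT1 removed the largest number of these of the 6 genes, 935 at L0 and 1502 at L20.

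Free RNA in a milk suspension can give a cell a UMI of a gene that it does not express, so the markers were also read in cells that carried at least 2 of 4 epithelial genes (EPCAM, CLDN4, KRT18, KRT8). At 1000 UMIs per cell, SLAMF7 was found in 70.2% of members at L0 and 82.3% at L20 against 4.03 and 16.9% of epithelial-gene cells, which without thinning stood at 41.2 and 49.5% with median depths of 18709 and 3905 UMIs. CSF1 was found in 70.4 and 51.9% of members against 2.97 and 3.17%. ICAM1 was found in 28.2 and 49.1% against 1.28 and 2.45%, PDCD1LG2 in 8.27 and 31.9% against 0.33 and 1.15%, and P2RY14 in 1.60 and 14.6% against 0.15 and 0.58%. Each of these markers was also more frequent in epithelial-gene cells without thinning, in both libraries. The members were chosen by these UMIs, and thinning removes a larger part of the RNA of the deeper epithelial-gene cells. The contrast therefore cannot show how much of the marker RNA in members was free RNA. SLAMF7 was the marker most often seen outside the members, since 54.0% of the other kept cells at L20 and 31.0% at L0 had a UMI of it without thinning. Among cells with at least 2 genes of a neutrophil set (MMP8, S100A8, S100A9, S100A12), 15.6% at L0 and 37.8% at L20 carried SLAMF7 at 1000 UMIs.

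**Figure D1:**
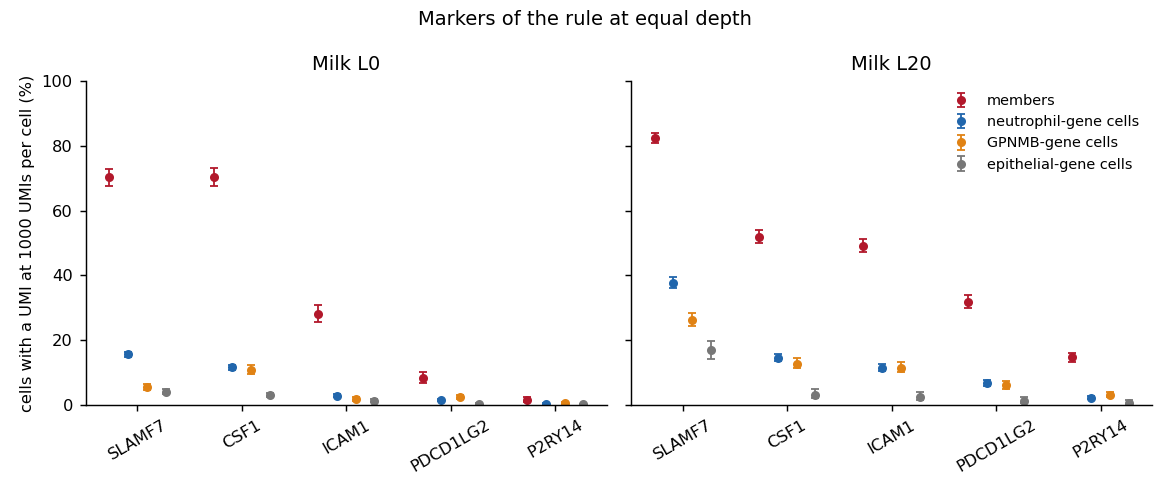
Share of cells with a UMI of each rule marker (vertical axis, percent) after thinning to 1000 UMIs per cell, in members and 3 other groups of cells at L0 (left) and L20 (right), with exact 95% intervals for counting error. The members were chosen by these genes, and SLAMF7 reaches 37.8% of neutrophil-gene cells at L20.

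Leukocyte genes were present, and the granulocyte list summed to more UMIs than the macrophage list. The 10 pan-leukocyte genes summed to 10067 CPM at L0 and 11358 at L20 in the members, and the 16 measured myeloid genes to 10815 and 12573 CPM. In other cells the pan-leukocyte sum was 5158 and 11837 CPM and the myeloid sum 4885 and 10641 CPM. In cells with at most 1 marker and no excluding gene they were 13222 and 12900 CPM and 13566 and 11399 CPM. Against those cells 3 of 10 pan-leukocyte genes were lowered in the members and none raised. Of all genes compared, 5.49% were lowered and 0.718% raised. CSF3R, the receptor for the granulocyte growth factor, stood at 794 and 1019 CPM, TREM1, an amplifier of inflammation on neutrophils and monocytes, at 768 and 623 CPM, and S100A12, a calcium-binding alarm protein of granulocytes, at 5220 and 7421 CPM. The neutrophil list as a whole (11 genes measured) summed to 10045 and 12060 CPM, against 9157 and 8821 in other cells and 20650 and 13944 in cells with at most 1 marker and no excluding gene. At L0, CSF3R and TREM1 were 2.22-fold and 2.57-fold the level of all other cells but 0.649-fold and 0.721-fold that of cells with at most 1 marker and no excluding gene. After thinning, the median fold of the neutrophil list over other cells was 0.535 at L0 and 0.709 at L20. Of its 11 genes 3 were lowered, where 18.9% of all genes compared were. The median fold of the myeloid list was 0.811 and 0.956 after thinning. The macrophage list (15 genes measured) summed to 2494 and 3949 CPM in members, against 2125 and 13234 in other cells and 1693 and 3265 in cells with at most 1 marker and no excluding gene. CTSL, a lysosomal protease of macrophages, made up much of it at L20, with 90.0 and 3088 CPM, while the scavenger receptor MRC1 stood at 7.43 and 22.9 CPM and the lipid receptor TREM2 at 1.96 and 4.07 CPM. The dendritic list (8 genes measured) summed to 390 and 779 CPM, against 117 and 184 CPM in other cells. It stood at 333 and 272 CPM in cells with at most 1 marker and no excluding gene. The B and plasma list summed to 798 and 736 CPM, against 993 and 524 CPM in other cells. Fibroblast genes were nearly missing (0.782 and 0.678 CPM for the list). T and NK genes summed to 89.6 and 163 CPM, against 97.5 and 542 CPM in other cells. Epithelial genes summed to 10564 and 2905 CPM against 167163 and 71193 in other cells. The rule itself removed cells with EPCAM, CLDN4 or CD3D, so low epithelial and T cell sums say nothing about the label. Genes of the myeloid list were present in the members, and sums over cells do not set the lineage of a single cell.

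Lineage genes were also counted cell by cell. At L0, 1121 members (69.8%) had a UMI of a granulocyte gene (CSF3R, TREM1 or IL1R2) and none of a macrophage gene (CTSL, CD163, MRC1, MSR1 or CD86), 46 (2.86%) had macrophage genes only, 167 (10.4%) had both and 273 had neither. At L20 the counts were 1672 (56.3%), 181 (6.09%), 771 (26.0%) and 347. The much deeper epithelial-gene cells gave 54.5% with granulocyte genes only and 15.6% with both at L0, and 16.3 and 18.1% at L20. A UMI of such a gene therefore does not set the lineage of a cell. Members with both kinds of gene were deeper than those with granulocyte genes only, with medians of 2688 and 2766 against 1148 and 1217.5 UMIs, and the part of depth or of doublets in this class was not tested. SLAMF7 summed to 3441 CPM at L0 and 13389 CPM at L20 in members with granulocyte genes only, against 623 and 3185 CPM in those with both, but members with neither kind stood at 3321 and 15105 CPM. SLAMF7 is a rule gene and these classes differ in depth, so its levels in them are a description only. ARG1, the arginase of suppressive and granulocytic myeloid cells, ran in the opposite direction, with 543 and 824 CPM against 2513 and 4954 CPM.

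Clusters computed without the 11 genes of the rule placed the members in several groups of cells. At L0 cluster 2 held 944 members (58.7%), which were 26.1% of its cells, and clusters 5, 1 and 7 held 246, 216 and 101. At L20 cluster 3 held 1191 (40.1%), which were 63.3% of its cells, and clusters 1, 5, 2 and 11 held 553, 419, 255 and 213. Leading genes were MATN3, STAG3, CIART, EDN1, HSP70.2 and NOD2 in cluster 2 of L0, and IDO2, CXCL10, LRRK2, PHEX, ZC3H12C, FAS, IL2RA and TNFAIP2 in cluster 3 of L20. The clusters were made from the same cells, so these genes are descriptions, and no cluster was given a cell type name.

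Members of different clusters differed in the levels of granulocyte and macrophage genes and of SLAMF7. SLAMF7 stood at 4496 CPM in the members of cluster 2 and 566 CPM in those of cluster 5 at L0, and at 19852 CPM in cluster 3 and 1558 CPM in cluster 5 at L20. All cells of these clusters had median depths of 1125 against 2094 UMIs at L0 and 1275 against 3905.5 at L20. SLAMF7 is a rule gene, so its levels in clusters of unlike depth are a description only. Granulocyte and macrophage genes were not left out of the clustering. CSF3R was 1034 against 307 CPM at L0 and 1431 against 685 CPM at L20 in the same clusters. The genes of macrophages ran the other way. CTSL, a lysosomal protease, was at 7.01 against 302 CPM at L0 and 77.1 against 7970 CPM at L20, CD163, the receptor for haemoglobin complexes, at 4.38 against 230 CPM and 10.7 against 1059 CPM, and IL10, the anti-inflammatory cytokine, at 16.6 against 33.6 CPM and 36.4 against 530 CPM. IDO1, which degrades tryptophan, was high in cluster 3 of L20 (1356 CPM) and also in cluster 5 (944 CPM), but low in clusters 1 and 2 of L20 (107 and 19.4 CPM). CCL4, a chemokine for monocytes and T cells, was at 11214 CPM in cluster 3 and 8122 CPM in cluster 5 of L20.

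**Figure D2:**
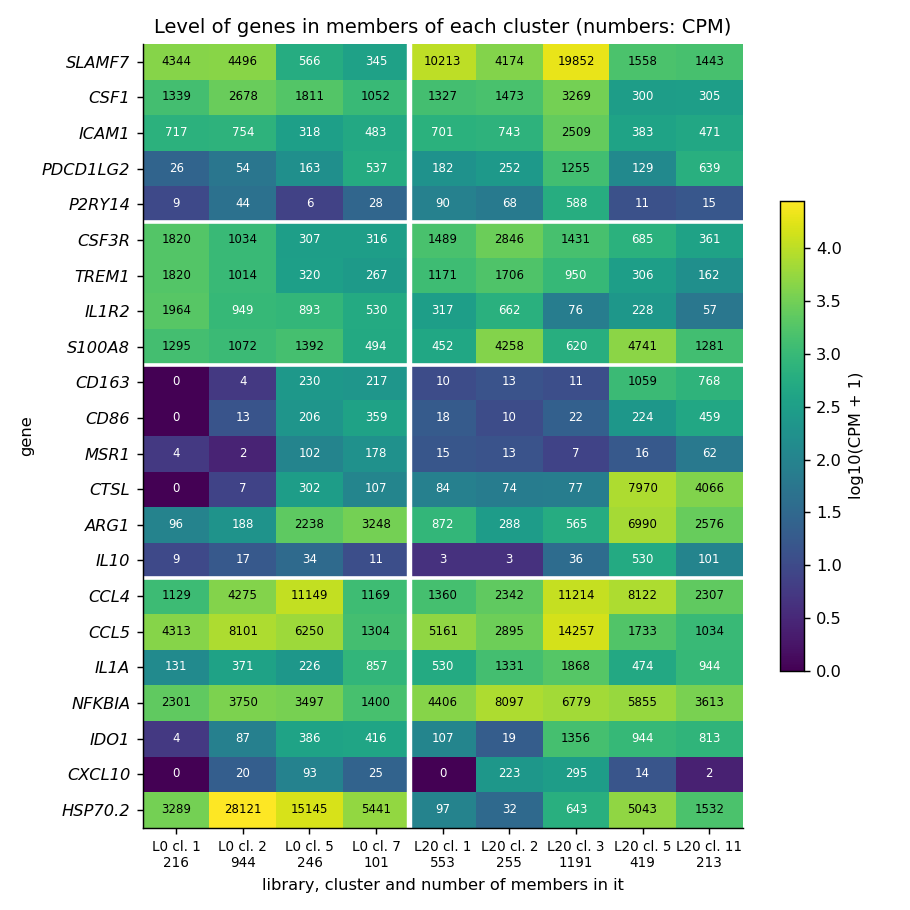
Summed level in CPM (number in each cell, colour on a log10 scale of CPM + 1) of rule genes, granulocyte genes, macrophage and ARG1 or IL10 genes and response genes in the members of the largest clusters of each library, with the number of members under each column. SLAMF7, CSF3R and TREM1 are highest in clusters 1 and 2 of L0 and 1, 2 and 3 of L20, and CTSL, CD163 and ARG1 in clusters 5 and 7 of L0 and 5 and 11 of L20. The members were chosen by the rule genes and the clusters differ in depth.

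Against all other kept cells, the summed UMIs of the members held more RNA of many NF-kappa-B and cytokine genes and of some chemokines in both libraries, and less RNA of milk proteins. Of 9729 genes with at least 10 UMIs in the members, or expected there from the rest, in each library, 649 (6.67%) were at least 2-fold higher in both libraries and 2292 (23.6%) at least 2-fold lower. The median log2 difference over all genes compared was -0.17 at L0 and -0.47 at L20. Deep cells weigh more in such sums, and the epithelial-gene cells held 55791740 of the 78439179 UMIs of other cells at L0 and 8546327 of 37049146 at L20. With each cell thinned to 1000 UMIs, 126 of 6691 genes (1.88%) were at least 2-fold higher in both libraries, 122 of them among the 649, and 1265 (18.9%) lower. With the mean of CPM per cell, which was added with the data in view, 133 of 9729 (1.37%) were higher and 1805 (18.6%) lower. Another reference was the other cells with at least 3 myeloid genes, 14157 of the 15964 at L0 and 9223 of the 11543 at L20. Against it 701 of 9631 genes (7.28%) passed the limit upwards and 2065 (21.4%) downwards. Epithelial genes summed to 170942 and 74381 CPM in it, against 167163 and 71193 CPM in all other cells. This reference thus did not leave out epithelial cells. Since many of the other cells were epithelial or of other classes, the members were also set against cells with at most 1 marker and no excluding gene (6590 at L0 and 4955 at L20, with median depths of 1112.5 and 1116 UMIs), a comparison that was added once values had been seen. Against cells below the rule in this sense, 68 of 9474 genes (0.718%) were at least 2-fold higher in both libraries and 520 (5.49%) at least 2-fold lower, and the median log2 difference was -0.29 and -0.37. Of these cells, 3613 at L0 and 1868 at L20 carried no marker at all.

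The NF-kappa-B list had the highest share of raised genes among the pathway lists with at least 10 genes compared, with 23 of 31 at least 2-fold higher than in all other cells and none lower. Of all genes compared, 6.67% were higher and 23.6% lower. The list did not lead against cells below the rule, where 0.718% of all genes were raised. There its 4 of 31 stood beside 4 of 15 chemokines, 3 of 16 cytokines and 2 of 14 costimulators. With cells thinned to 1000 UMIs the count was 9 of 31 (1.88% of all genes raised and 18.9% lowered). With the mean of CPM per cell it was 10 of 31 (1.37 and 18.6% of all genes). In both cases none of the list was lower. TNFAIP3 (A20, an enzyme that ends NF-kappa-B signalling) stood at 354 CPM at L0 and 691 CPM at L20 in the members against 43.0 and 178 CPM in other cells. NFKBIA, the inhibitor that holds NF-kappa-B in the cytoplasm, stood at 3008 and 5447 CPM against 707 and 2150 CPM. BIRC3, a ubiquitin ligase of TNF receptors, was 6.20-fold and 3.63-fold higher, and NFKB2 4.95-fold and 4.63-fold (2.46 and 3.62 after thinning). RELA, the constitutive subunit, was 2.77-fold higher at L0 and 1.57-fold at L20 and was not counted as raised. Against cells below the rule, 4 of 31 passed the 2-fold limit in both libraries, namely TNFAIP3 (2.56-fold and 2.29-fold), BIRC3 (2.24 and 2.14), TNFAIP2 (4.39 and 4.75) and CYLD (2.54 and 2.94), while NFKBIA was 1.39-fold and 1.55-fold higher. Of 29 genes of this list with a promoter window, 10 (34.5%) hold a kappa-B match, the list being one whose members are known targets.

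Cytokine genes were the next group, with 11 of 16 raised over all other cells (6.67% of all genes). After thinning to 1000 UMIs 1 of 13 was raised (1.88% of all genes), and over cells below the rule 3 of 16 (0.718%). IL1A, an alarm cytokine, stood at 343 and 939 CPM in members against 37.8 and 204 CPM in other cells, folds of 9.08 (8.42 to 9.80) and 4.61 (4.45 to 4.77). Its folds were 3.54 and 2.99 after thinning, and 2.30 and 2.68 against cells below the rule. IL23A, the specific subunit of interleukin 23, was rare at 11.7 and 27.1 CPM, with folds of 10.2 (6.53 to 15.6) and 15 (11.2 to 20.3) over other cells and 4.90 and 8.33 over cells below the rule. At L0 these folds rest on few cells, with 24 UMIs in the 251 members with 3 markers and 6 in the 1329 with 2. Members with 2 markers stood at 2.82 CPM at L0, below the 4.66 CPM of cells with 1 marker. At L20 they stood at 19.4 against 5.15 CPM. EBI3, a subunit shared by other cytokines of the interleukin 12 family, was at 7.43 and 52.9 CPM and 2.85-fold and 3.46-fold over cells below the rule. TNF was at 60.6 and 113 CPM, 4.45-fold and 2.42-fold over other cells and 1.19-fold and 1.96-fold over cells below the rule.

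Chemokines were raised in part, 6 of 16 over all other cells, with 3 lower (6.67 and 23.6% of all genes). Over cells below the rule 4 of 15 were raised (0.718% of all genes). After thinning 3 of 12 were raised and 2 lowered (1.88 and 18.9% of all genes). CCL3L1, CCL4 and CCL5, which draw monocytes and T cells, stood at 904, 5031 and 5942 CPM at L0 and at 1330, 6991 and 5966 CPM at L20. Over cells below the rule CCL3L1 was 2.66-fold and 4.72-fold higher, CCL4 2.31-fold and 2.70-fold, and CCL5 2.50-fold and 2.62-fold. CXCL10, which draws T cells through CXCR3, was at 35.6 and 104 CPM and 3.76-fold and 6.92-fold over cells below the rule. CXCL8, the main neutrophil attractant, was at 15064 and 11463 CPM, but 0.803-fold and 1.22-fold the level of cells below the rule. The chemokine of mucosal plasma cells, CCL28, which milk epithelium makes, was at 9 and 3.39 CPM against 190 and 68.3 CPM in other cells.

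Enzymes, receptors and transcription factors of myeloid cells were read in the same way. IDO1 stood at 187 and 814 CPM against 19.8 and 128 CPM in other cells, with folds of 9.43 (8.49 to 10.5) and 6.36 (6.10 to 6.62). Its folds were 3.46 and 5.40 after thinning, and 4.04 and 4.76 over cells below the rule. FAS, the death receptor, was at 84.9 and 262 CPM and 2.75-fold and 5.22-fold over cells below the rule. NOD2, the sensor of bacterial muramyl dipeptide, was at 234 and 324 CPM and 3.42-fold and 2.90-fold over them. BATF3, a transcription factor known from dendritic cells, was 4.47-fold and 5.83-fold over other cells, but 1.35-fold at L0 and 3.89-fold at L20 over cells below the rule. In counts, 12 of 20 myeloid transcription factors, 8 of 19 pattern recognition genes, 7 of 16 genes of lipid mediators and immune metabolism, 5 of 14 costimulators and 4 of 8 chemokine receptors were raised over all other cells, where 6.67% of all genes were. Over cells below the rule (0.718% of all genes) the counts were 0 of 20, 1 of 20 (NOD2), 1 of 16 (PTGES, prostaglandin E synthase), 2 of 14 (FAS and TNFSF15) and 0 of 11. After thinning (1.88% of all genes raised and 18.9% lowered) they were 4 of 19, 4 of 14, 1 of 15, 2 of 10 and 0 of 8, with 1, 2, 1, 1 and 1 genes lowered.

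Of the dendritic list 2 of 5 genes were raised over all other cells (FLT3 and BATF3), of the migratory dendritic list 4 of 7 (CCR7, FSCN1, CCL22 and CD83) and of the myeloid list 5 of 16. After thinning 0 of 3, 0 of 2 and 0 of 16 were, where 1.88% of all genes compared were raised. Fewer genes of both dendritic lists were compared after thinning. Their counts therefore do not show whether the remaining genes were raised. Over cells below the rule FSCN1, an actin-bundling protein, was the gene of these lists that passed the limit, at 2.67-fold and 2.32-fold. Of 15 interferon-gamma genes, 4 were raised (IDO1, IRF1, JAK2 and STAT3), against 1 of 14 after thinning and 1 of 15 over cells below the rule. None of 19 genes induced by type I interferon, 11 of antigen presentation, 18 of the lysosome, 14 of macrophages and 11 of neutrophils passed the limit upwards. Of all genes compared, 6.67% did. The rule left out cells with IFIT1, so the type I interferon list was not free of it, and the other excluding genes bear in the same way on the epithelial (EPCAM and CLDN4), T and NK (CD3D), neutrophil (MMP8) and macrophage (GPNMB) lists. The median fold of the pan-leukocyte list was 1.82 at L0 and 1.01 at L20 over other cells by summed UMIs, and 0.728 and 0.771 after thinning. Over cells below the rule (5.49% of all genes lowered and 0.718% raised), 8 of 11 T and NK genes and 7 of 14 epithelial genes were lowered. None of 11 neutrophil genes was raised there. The 10 lowest folds included genes of milk epithelium, whose cells the rule removed through EPCAM and CLDN4. CSN3 (kappa-casein) stood at 1369 and 455 CPM in members against 29522 and 9669 CPM in other cells, LALBA (alpha-lactalbumin) at 1130 and 343 CPM against 21647 and 10118 CPM, and FDCSP, a secreted protein of epithelium and follicular dendritic cells, at 1.56 and 3.73 CPM against 92.8 and 213 CPM. The ratio of CSN3 at L20 over L0 was 0.333 in members and 0.328 in other cells, and the part of free milk RNA in it was not tested.

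**Figure D3:**
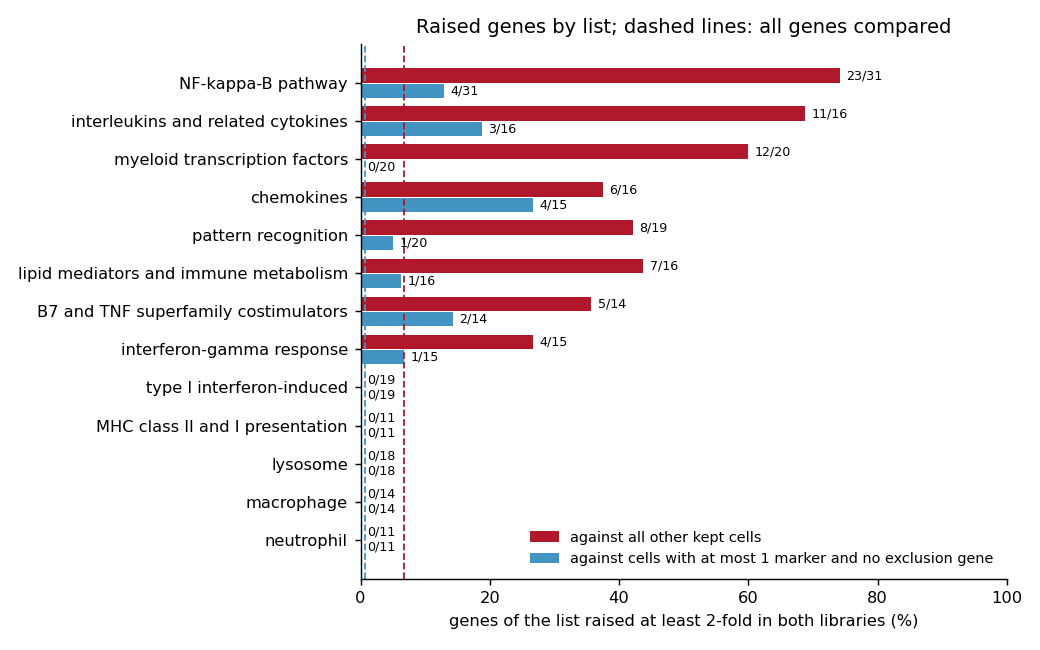
Share of each gene list (horizontal axis, percent of the genes compared) at least 2-fold higher in members in both libraries, against all other kept cells (red) and against cells with at most 1 marker and no excluding gene (blue), with counts beside each bar and dashed lines for all genes compared. The NF-kappa-B list stands at 23 of 31 in the former and 4 of 31 in the latter.

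Apart from the lists, the genes with the highest smaller-of-both fold over other cells included ZC3H12C (an RNA-degrading relative of regnase), EDN1 (endothelin), DUSP16 (a phosphatase of stress kinases), PLEK (pleckstrin, a cytoskeletal substrate of protein kinase C), GADD45B (a stress response gene) and HSP70.2 (a heat shock protein). ZC3H12C stood at 63.0 and 293 CPM in the members against 9.09 and 43.6 CPM in other cells. EDN1 was at 79.4 and 316 CPM against 11.9 and 58.9 CPM, and 3.53-fold and 4.16-fold over cells below the rule. PLEK was at 1900 and 5696 CPM against 317 and 1255 CPM. HSP70.2 stood at 17709 CPM at L0 and 1959 CPM at L20 against 2106 and 386 CPM in other cells, and was 2.45-fold and 2.82-fold over cells below the rule. All 6 were higher in the members than in either set of cells in both libraries, but their folds over other cells were smaller after thinning, such as 2.20 and 3.01 for PLEK, 2.77 and 3.08 for EDN1, 4.71 and 5.42 for ZC3H12C and 3.57 and 3.83 for HSP70.2.

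The level of several genes that the rule did not use changed with the number of markers in a cell, which the rule cut at 2, and that of others did not follow it. IDO1 went from 27.8 CPM in cells with no marker through 67.3 (1 marker), 127 (2) and 412 (3) to 1154 CPM (4 or 5) at L0, and from 73.4 through 228, 534 and 985 to 1507 CPM at L20. CCL4 went from 1431 to 9800 CPM at L0 and from 2106 to 13944 CPM at L20. FAS went from 20.0 to 270 CPM and from 44.2 to 651 CPM, and PLEK from 828 to 6312 CPM and from 1278 to 13945 CPM. S100A8 went down with the number of markers at L0, from 3658 to 393 CPM, whereas at L20 it stood at 2492, 2589, 2668, 1892 and 694 CPM. CSF3R went from 1438 to 688 CPM at L0 and from 830 to 1202 CPM at L20, and TYROBP, the adaptor of myeloid activating receptors, from 3257 to 1842 CPM and from 1803 to 1200 CPM. HSP70.2 was highest at 2 markers, with 18172 CPM at L0 and 2135 CPM at L20, and stood at 9873 and 1073 CPM in cells with 4 or 5. IL23A was highest at 3 markers, with 61.4 and 48.2 CPM, and had no UMI at L0 and 15.5 CPM at L20 in cells with 4 or 5. At L20 CD40, a costimulatory receptor, went from 55.2 CPM at 3 markers to 11 CPM at 4 or 5, and TNF from 127 to 96.1 CPM. Median depth stood between 1112 and 1279 UMIs over these classes at L0 and between 1097 and 1386 at L20, and the class of 4 or 5 markers held 27 cells at L0 and 582 at L20. In IDO1, CCL4 and FAS the change ran across the limit of the rule, and the level of cells with 1 marker already lay above that of cells with none in both libraries.

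**Figure D4:**
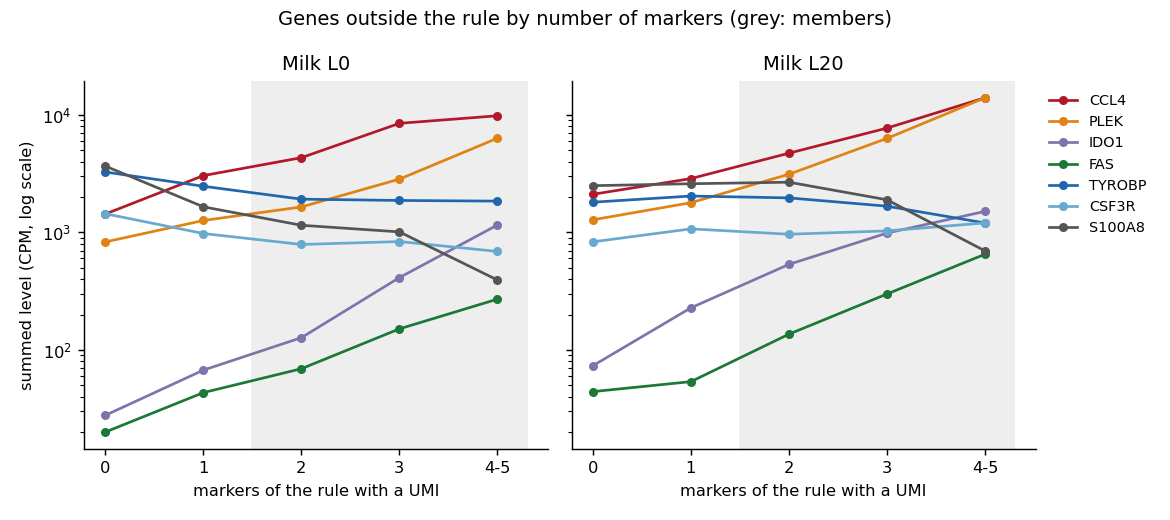
Summed level (CPM, log scale) of 7 genes outside the rule against the number of rule markers in a cell, for cells without an excluding gene at L0 (left) and L20 (right), with members shaded grey. IDO1 goes from 27.8 to 1154 CPM at L0 and from 73.4 to 1507 CPM at L20, while S100A8 ends lower than it starts in both.

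Between the stages, members at L20 carried more RNA of 11 of 18 cytokine genes and of CTSL, and less of HSP70.2, H1-3 and H1-2 than those at L0. Of 10413 genes compared, 1330 (12.8%) were at least 2-fold higher at L20 and 1559 (15%) at least 2-fold lower, and the median log2 ratio was -0.03. Of the higher genes, 637 were at least 2-fold higher in other kept cells too, and of the lower genes 669 were at least 2-fold lower there. An interval wholly past the 2-fold limit was found for 380 higher and 513 lower genes. These ratios compare a single library with another.

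Of 18 cytokine genes, 11 were higher at L20 and none lower, against 12.8% of all genes. IL10 went from 22.3 to 187 CPM (ratio 8.37), OSM (oncostatin M) from 16 to 94.6 CPM and EBI3 from 7.43 to 52.9 CPM. In members with granulocyte genes only IL10 went from 18.8 to 44.3 CPM, and in those with both kinds of gene from 41.2 to 355 CPM. The class with both was 10.4% of members at L0 and 26.0% at L20. For IL10 a change per cell and a change in makeup thus cannot be told apart. CSF3, the granulocyte growth factor, stood at 8.21 and 136 CPM, a ratio of 16.5 in members and 2.38 in other cells. TNIP3, an inhibitor of NF-kappa-B, had a ratio of 18.4 in members and 8.49 in other cells, ACOD1, which makes itaconate, 10.3 and 11.8, and SOD2, the mitochondrial superoxide dismutase, 5.84 and 4.54. IL6 was counted with 1 UMI at L0 and 66 at L20, a ratio of 28.6 with an interval of 4.96 to 1147. CTSL had a ratio of 34.3 (30.1 to 39.3) in members and 25.2 in other cells, from 90.0 to 3088 CPM in the members. Since members of cluster 5 stood at 7970 CPM and those of cluster 3 at 77.1 CPM at L20, a change per cell and a change in the makeup of the members cannot be told apart.

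Of 16 chemokines 7 were higher at L20 and 3 lower in the members, and of 21 genes induced by type I interferon 6 were higher and none lower, against 12.8% of all genes higher and 15% lower. Several of them had a smaller ratio in the members than in other cells, a difference that carries no test. CCL5 had a ratio of 1.0 in members and 2.60 in other cells, CCL4 1.39 and 4.31, and CCL2, the chemokine for monocytes, 6.13 and 38.9. The interferon-induced genes MX1 and ISG15 had ratios of 3.14 and 1.37 in members against 28.3 and 4.91 in other cells, where the cells with IFIT1 remain. CTSD, a lysosomal protease, was at a ratio of 0.75 in members and 7.31 in other cells, which hold the cells with GPNMB. CXCL10 went the other way, with 2.92 in members and 1.19 in other cells. Of 12 T and NK genes 9 were higher at L20, from a low base, such as CD2 at 2.35 and 19.7 CPM. The sum of this list went from 89.6 to 163 CPM in members and from 97.5 to 542 CPM in other cells, and the part of free RNA in it was not tested.

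Against 15% of all genes lower at L20, 4 of 11 neutrophil genes were lower and none higher. The sum of that list still went from 10045 to 12060 CPM, with S100A12 at 5220 and 7421 CPM. Among the lower genes was IL1R2, the decoy receptor for interleukin 1, with a ratio of 0.23 in members and 0.31 in other cells. ALOX5AP, which leukotriene synthesis needs, stood at 947 and 262 CPM, and CXCR4, which keeps neutrophils in the marrow, at 695 and 281 CPM, a ratio of 0.40 in members and 1.21 in other cells. Of 20 immediate early genes 5 were lower and 1 higher, with ATF3 at 624 and 240 CPM and JUN at 1689 and 746 CPM. HSP70.2 was at a ratio of 0.111 (0.108 to 0.113) in members and 0.183 in other cells. The histone genes H1-3 and H1-2 stood at 891 and 323 CPM at L0 and 30 and 19.8 CPM at L20. HS3ST3A1, a heparan sulphate sulfotransferase, had 112 UMIs at L0 and none at L20, a ratio of at most 0.0116 with 3 UMIs taken in place of none over the library, and of at most 0.0145 with the counting error of both libraries.

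**Figure D5:**
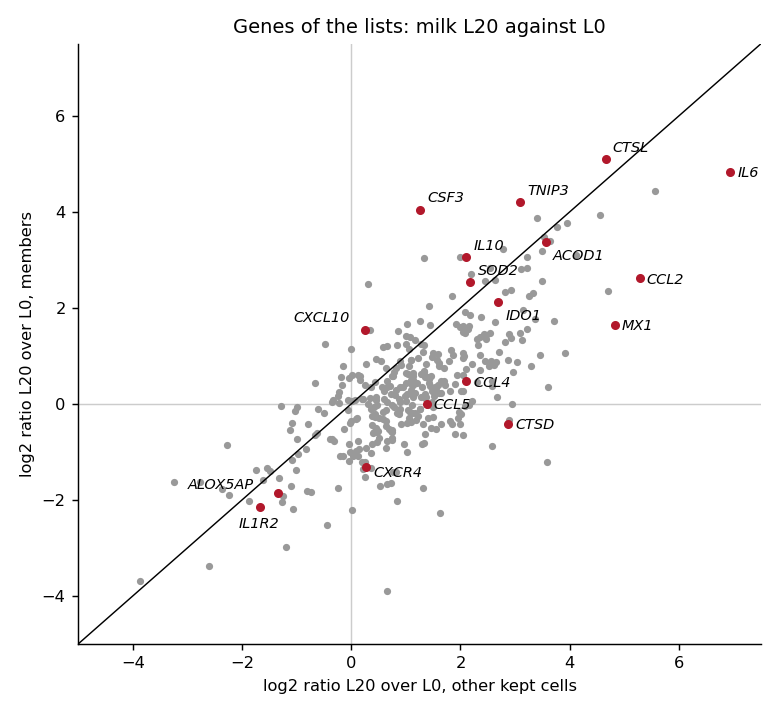
Log2 ratio of CPM at L20 over L0 in members (vertical axis) against the same ratio in other kept cells (horizontal axis) for genes of the lists, with the line of equal ratios. CSF3 and CXCL10 lie above the line, and CCL2, MX1 and CTSD below it.

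The nuclei of the gland did not use the rule in its choice and offer replicate sows. Of 126833 kept nuclei, 1030 met the rule. The shares of the G90 sows were 0.814 and 0.289%, those of the L0 sows 0.332 and 0.256%, and those of the L20 sows 0.746 and 1.99%. During involution the PI2 sows had 0.321 and 1.21% and the PI7 sows 1.16 and 0.814%. The second sow at L20 was the highest and the second sow at L0 the lowest, and the 4 glands of lactation overlapped with the 6 others. The mean was 0.830% ± 0.801 (SD, n = 4) in lactation and 0.769% ± 0.396 (SD, n = 6) at the other stages, a difference of 0.062 percentage points (exact two-sided permutation test, p = 0.890 over 210 splits). The sign of this difference was not stable. It was -0.324 points without the second sow at L20, -0.034 without the second at G90, -0.028 without the first at PI2 and -0.276 without the excluding genes. The smallest p that this test allows is 0.00476. The lactation group pooled the stage with the lowest mean (L0, 0.294%) and the stage with the highest (L20, 1.37%). The test therefore says nothing about L20 against L0, which was not tested in the gland.

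The gland nuclei that met the rule were unlike the milk cells in the genes that let them in. SLAMF7 was found in 13.6% of them, P2RY14 in 27.7%, PDCD1LG2 in 36.7%, CSF1 in 61.1% and ICAM1 in 66.9%. PTPRC (CD45, carried by all leukocytes) was found in 36.1%, PECAM1, an endothelial adhesion protein, in 31.5%, CSF1R in 19.7% and CSF3R in 2.14%, against 15, 27.6, 5.93 and 0.943% of all kept nuclei. CD163 was found in 23.7% against 7.5%, and the epithelial genes ELF5 and CSN2 in 19.3 and 11.7% against 46.0 and 28.2%. These are pooled shares, to which the second sow at L20 gave 301 of the 1030 nuclei, and the share with PTPRC lay between 7.08% (second sow at PI2) and 52.6% (first sow at PI7). In every gland the nuclei that met the rule were deeper than all kept nuclei. Medians were 3386 against 1916 UMIs in the second sow at L20 and 1795 against 1741 in the first at PI2. The part of depth in these shares was not tested. Nuclei and whole cells hold different RNA, and these shares were not compared with those of milk by a test.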

How the data were processed

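Single-cell RNA was measured in 1 library of colostrum (L0) and 1 of mature milk (L20), and single-nucleus RNA in 10 mammary glands, 2 sows per stage. The authors made the libraries with GEXSCOPE kits, processed the reads with CeleScope, aligned them to Sscrofa11.1 and deposited whole UMI counts per gene and barcode, without normalization or removal of free RNA or doublets. The annotation release was not given in these sources. The 2 tissue sections and all columns other than counts were not used here, and 0 columns of other samples were found.

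Cells with fewer than 300 genes or over 25% mitochondrial UMIs were left out. The members, the gene lists and the comparisons were chosen with earlier results of these data known. UMIs were summed over members and over other kept cells in each library, scaled to 1000000 (CPM) and compared as folds, with a gene called raised or lowered at a fold of 2 in both libraries and with at least 10 UMIs in, or expected for, the members. Fold intervals are conditional exact intervals at 95%, and share intervals are exact Clopper-Pearson intervals. They cover counting error only, since there was 1 library per stage, and total UMIs were 84971814 at L0 and 46923887 at L20. A gene with no UMI in a group was taken at 3 UMIs. Symbols came from the files for 15476 of 28779 gene identifiers and from the reference table for 640 more, and 452 of 536 list genes were matched. Besides list and rule genes, the text could name the 20 genes with the highest smaller-of-both fold, the 10 with the lowest, the 10 highest and 10 lowest ratios between stages (at least 30 UMIs) and the 10 leading genes of each cluster.

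Each milk library was clustered on its own with scanpy 1.11.5 and igraph 0.11.9 (Leiden, resolution 0.3, 20 neighbours, 15 principal components, 2000 variable genes without the 11 rule genes). Scrublet called 0 doublets in either library, too few for a usable call among so many cells, so doublets were kept. Gland shares were compared by an exact permutation test over 210 splits. Promoter windows came from RefSeq (Sscrofa11.1). The fold step was tested on simulated data for members against other kept cells with 9729 genes, of which 50 were changed at each size, and it recovered 98% of 3-fold and of 4-fold higher genes, 88% of 3-fold and 92% of 4-fold lower genes and called 0 of 9529 unchanged genes. The simulated sums were Poisson draws from the same profile, without variation between cells, differences in makeup or free RNA. They therefore give no rate of false calls for the real cells. Python 3.11.15, numpy 2.4.6, scipy 1.17.1, pandas 2.3.3 and matplotlib 3.10.9 were used. Alternatives were other limits of the rule, of cells and of folds, thinning to 1000 UMIs, the median of gene ratios as scale, other reference cells, other cluster settings and leaving out each gland. The reference of cells with at most 1 marker, the mean of CPM per cell, leaving out the top 5% of Scrublet scores and leaving out shared barcodes were chosen after seeing the data.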

Additional observations from a re-analysis of the deposited data

How the results depend on the processing

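The member share was 9.15% at L0 and 20.5% at L20 (ratio 2.24), and L20 stayed higher under every alternative run. It was 1.58 and 9.81% (6.20) with at least 3 markers, 26.1 and 41.7% (1.60) with at least 1, 19.3 and 36.0% (1.87) without excluding genes, 6.09 and 15.8% (2.59) in cells of 500 or more genes and no more than 10% mitochondrial UMIs, and 7.07 and 19.1% (2.70) after thinning to 1000 UMIs. It was 2.85 and 10.8% (3.8) without SLAMF7, 3.10 and 15.6% (5.04) without CSF1, 8.49 and 18.2% without PDCD1LG2 and 7.14 and 16.3% without ICAM1. Leaving out P2RY14, and, chosen after seeing the data, shared barcodes or the top 5% of Scrublet scores, left the shares within their counting intervals. The planned removal of called doublets could not be run, because 0 were called.

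The 649 raised genes became 167 at a fold of 3, 6272 with no minimum of UMIs, 126 after thinning and, chosen after seeing the data, 68 against cells below the rule and 133 by mean CPM per cell. The 2292 lowered genes became 1123, 1419 with members of at least 3 markers, 1265 after thinning and 520 against cells below the rule. Scaling by the median of gene ratios gave 908 raised and 1940 lowered. At a fold of 3 the stage counts were 585 higher and 745 lower, and 6466 were lower with no minimum. In the counts with no minimum (6272 and 6466), a gene with no UMI in a group was taken at 3 UMIs. Such a gene can be called higher in the group that lacks it, so these counts are no result about the members. Thus 4 of 5 fibroblast genes were called raised, though that list summed to 0.782 CPM in members and 2.70 CPM in other cells at L0. The cluster holding most members at L0 held 48.3% of them at resolution 0.6. The genes with the highest and lowest folds over other cells kept their direction in the alternatives run, but of 60 such values 55 moved beyond their counting interval after thinning, 55 by mean CPM per cell and 56 against cells below the rule. Lineage genes and others did not keep theirs at L0, where over other cells and over cells below the rule CSF3R was at 2.22-fold and 0.649-fold, TREM1 at 2.57 and 0.721, CXCL8 at 2.88 and 0.803 and HS3ST3A1 at 2.27 and 0.671.

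For gland nuclei, the difference between lactation and other stages (0.062 points, p = 0.890 by exact permutation) was -0.276 without excluding genes (p = 0.776). Leaving out each gland in turn gave -0.324 to 0.253 (p between 0.226 and 0.921 by exact permutation), with negative values without L20 replicate 2 (-0.324), G90 replicate 2 (-0.034) and PI2 replicate 1 (-0.028). The replicate block gave 0.062 (exact permutation, p = 0.910). The numbers do not pair the sows, since each gland is another sow and replicate 1 was higher in 3 of 5 stages. Depth limits what the milk values show: at about 1200 UMIs per cell a gene with no UMI may still be expressed.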
